A study of Rattus norvegicus with 6 samples.

Results

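The late-named rat miRNAs described here are the entries of the count table whose number, after the prefix rno-miR-, lies between 3540 and 3600 or between 6314 and 6334. The rule used the names alone, with no measured value, and found 62 of 650 listed mature miRNAs, of which 49 fall in the lower range and 13 in the upper one. miRNA numbers are given in the order of registration, so a high number marks a late entry in the catalogue. At the edges of the rule, the nearest listed entries outside were miR-3473 with 27 to 152 counts per library, miR-5132-3p with 0 to 4, miR-5132-5p with 0 to 2, miR-6216 with 7 to 23 and miR-7578 with 1 to 13. Just inside stood miR-3542 with 1 to 7 counts, the miR-3596 entries with up to 56612, miR-6314 with 0 to 1 and miR-6331 with 535 to 1018.

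The libraries came from trigeminal ganglia of Sprague-Dawley rats aged 8 to 10 weeks, taken from the operated side on day 14. In 3 libraries the infraorbital nerve had been injured by chronic constriction (CCI-ION), a model of facial neuropathic pain in which silk ligatures are tied loosely around the left nerve. In the other 3 the rats were sham-operated, with the same nerve exposed and not ligated. Both groups share strain, age, day and surgery up to the ligation, and the labels name no genetic change and no drug beyond anesthesia. The ganglion is a mixed tissue of sensory neurons, satellite glia, Schwann cells and vessels, and in such bulk RNA fewer cells of a type and less RNA per cell cannot be told apart. Separate animals per library are not stated in the labels, and the p-values then reflect only the spread among these libraries, which may be technical.

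The libraries held 6420434 to 12560545 miRNA counts, and 3 counts corresponded to 0.239 to 0.467 CPM. The sensory neuron markers miR-183-5p, miR-96-5p and miR-182 summed to 35126 to 44685 CPM in sham and 34692 to 45625 CPM in CCI-ION libraries, with none of the 3 at 0. Of 3 broader neuron markers, 2 (miR-124-3p and miR-128-3p) were lower in CCI-ION with the replicate block described next, and the sums were 15755 to 19141 CPM in sham and 13167 to 17194 CPM in CCI-ION libraries. Of 5 leukocyte markers, 2 (miR-142-3p and miR-155-5p) were higher with that block, and the sums did not overlap (222 to 266 CPM in sham, 284 to 331 CPM in CCI-ION). The 3 erythroid markers summed to 276 to 751 CPM and 390.2 to 780.5 CPM with none called, and no marker of these lists was at 0. The part of such differences in the members' values was not tested. Both groups carry replicate numbers 1 to 3, and libraries of the same number deviated together from their group means (correlations of 0.664, 0.591 and 0.457). For different numbers the correlations ran from -0.61 to 0.17. Deviations from a mean of 3 sum to 0, so these values are not independent. A blocked fit, with the replicate number as a term, was therefore set beside the fit on group alone wherever it changed a call, a call being an adjusted p under 0.05. That choice rests on the same data as the blocked p-values.

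A miRNA is cut from a hairpin in a longer transcript, and its seed, bases 2 to 8, does most of the pairing with target messenger RNAs. A hairpin read from the opposite DNA strand often folds into a hairpin as well, so one locus can be listed as a pair of miRNAs, one on each strand, with complementary sequences and different seeds. Several of the older miRNAs met below have well-known settings: the miR-183 cluster in sensory neurons, let-7 and miR-125b in differentiated tissues, miR-1 in muscle, and the large imprinted Dlk1-Dio3 cluster in neurons.

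The main sequence feature described for the members was complementarity to an older miRNA. The naming rule did not use sequence, but antisense partners were looked for by plan, so the shares below only describe the list. Only members of the lower number range showed such complementarity. The reverse complement of 28 of the 62 members (45.2%) matched another listed miRNA over at least 15 bases with at most 1 mismatch, against 37 of the 588 other listed miRNAs (6.29%). Of those 37, 31 had a member as partner and 6 did not. The same 28 members were found with no mismatch allowed, with 2 allowed and with a minimum overlap of 18 bases. All 28 belong to the 49 members of the lower range, and none of the 13 in the upper range had a partner. The most abundant pairs and those whose values differed most between the groups follow, 5′ to 3′, with the seed in capitals and T for U, as in the count table.
miR-3553: cAGTGAATtctaccagtgccata
miR-183-5p: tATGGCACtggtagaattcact
miR-3588: tCACAAGTtagggtctcaggga
miR-125b-5p: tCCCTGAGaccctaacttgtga
miR-3596a: aACTATACaacctactacctca
let-7a-5p: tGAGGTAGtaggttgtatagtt
miR-3596d: cTATACAAtctactacctca
let-7f-5p: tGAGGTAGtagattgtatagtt
miR-3557-5p: gCCTTCTGactccaagtccagt
miR-378a-3p: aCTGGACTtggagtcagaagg
miR-3557-3p: aCACAGGAcctggagtcaggag
miR-378a-5p: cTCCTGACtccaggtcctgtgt
miR-3543: cAGGAGTCgagtgatggttcaaa
miR-434-3p: tTTGAACCatcactcgactcct
miR-3571: tACACACTtctttacattccata
miR-1-3p: tGGAATGTaaagaagtgtgtat
miR-3556b: aCCGATTTcaaatggtgcta
miR-29c-3p: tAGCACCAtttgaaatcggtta

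In all 28 pairs the best match had no mismatch, over 18 to 22 bases, and the 28 members had 28 different partners. In 8 pairs both sequences covered exactly the same bases (miR-3588 and miR-125b-5p, miR-3596a and let-7a-5p, and miR-3557-3p and miR-378a-5p among them), and in 13 the member covered the whole partner. In 20 pairs the 3′ end of the member lay opposite the first base of the partner, as in miR-3553, which extends 1 base beyond the 3′ end of miR-183-5p. Of the 28 members, 8 also matched a further listed miRNA within 1 mismatch. Among them, miR-3571 matched miR-1b, miR-3556b matched miR-29a-3p and miR-29b-3p, and miR-3596a matched let-7c-5p, let-7e-5p and let-7f-5p. The seeds of the pair members differ, because the seed of each lies opposite the 3′ part of the other.

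RefSeq held the mature sequence of 56 of the 62 members, identical to that in the count table in all 56, and a hairpin position for 51 (build GRCr8). Both hairpins were listed for 21 of the 28 pairs, and in all 21 they overlapped on opposite strands, by 36 to 110 bases. The hairpin of miR-3553 lies at chr4:59756047-59756152 on the plus strand, opposite miR-183 and within 10 kb of miR-96 and miR-182, all on the minus strand. The hairpin of miR-3571 lies at chr18:2160316-2160426 on the plus strand, opposite miR-1 and beside miR-133a-1, both on the minus strand. The hairpin of miR-3588 and that of miR-3556b were not in the table.

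The largest set of antisense members at one locus lies in the Dlk1-Dio3 cluster on chromosome 6, whose older miRNAs are on the plus strand. The members miR-3543 (partner miR-434-3p), miR-3544 (miR-337-5p), miR-3576 (miR-539-5p), miR-3578 (miR-369-5p), miR-3579 (miR-380-5p), miR-3592 (miR-382-3p) and miR-3595 (miR-376a-3p) are all on the minus strand there. miR-6331 lies in the same cluster at chr6:134564344-134564466, but on the plus strand, with 11 of the 14 hairpins within 10 kb on its own strand. It had no antisense partner among the listed miRNAs.

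Another antisense set stands opposite let-7. miR-3596a, miR-3596b, miR-3596c and miR-3596d complement let-7a-5p, let-7d-5p, let-7e-5p and let-7f-5p, and they differ from each other by 1 or 2 bases. Outside the members, let-7b-3p differs from miR-3596b by 2 bases over 18. A further set stands opposite miR-29, where miR-3556a, miR-3556b and miR-3587 complement miR-29a-3p, miR-29c-3p and miR-29b-3p. In this set miR-3556b differs by 1 base over 18 from each of the other two. Counts of such near copies are uncertain, since reads could have been split among them. The remaining pairs were miR-3546 with miR-208a-5p, miR-3548 with miR-200a-5p, miR-3560 with miR-501-3p, miR-3570 with miR-181a-1-3p, miR-3574 with miR-210-3p, miR-3586-3p with miR-151-5p, miR-3589 with miR-505-3p, and miR-3590-3p and miR-3590-5p with miR-130a-5p and miR-130a-3p.

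The antisense members also differed from the rest in their first base. T, the most frequent first base of the listed miRNAs (36.6% of 650), began 5 of the 28 antisense members (17.9%), 11 of their 28 partners (39.3%) and 16 of the 34 members without a partner (47.1%). Median GC content was 44.9% in antisense members, 44.2% in their partners, 52.3% in members without a partner and 47.8% over all listed miRNAs. These shares are a description of the sequences and were not tested.

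The members ranged from a single count in all libraries together to rank 19 of the 650 listed miRNAs. All 62 had at least 1 count in some library, as did every listed miRNA, so this does not set the members apart. In every library 34 members had at least 1 count, against 508 of all 650 listed miRNAs. At least 10 counts were reached in some library by 31 members and in every library by 26. The other 31 never reached 10 counts, against 159 of all 650 listed miRNAs, so low counts were more common among the members. Of these 31, 7 were antisense members and 24 had no partner, and 12 had 1 count in all 6 libraries together. Among these 12 were the antisense members miR-3579, miR-3587, miR-3595 and miR-3548, whose partners miR-380-5p, miR-29b-3p, miR-376a-3p and miR-200a-5p had 7897, 5971, 42 and 14 counts in total.

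Nearly all counts of the members came from a few antisense entries. The members held 2.21%, 2.07% and 1.94% of the miRNA counts of the sham libraries and 2.23%, 1.81% and 2.01% of those of the CCI-ION libraries. The means were 2.08% ± 0.137 and 2.02% ± 0.208 (SD, n = 3 each), so the difference was smaller than the spread between libraries. The 28 antisense members accounted for 2.06% ± 0.137 and 2.00% ± 0.208, and the 34 members without a partner for 0.0173% ± 0.000251 and 0.0175% ± 0.000782. The 4 most abundant members held 90.5% to 92.3% of the members' counts, and the top 8 held 98.6% to 98.8%.

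**Figure D1:**
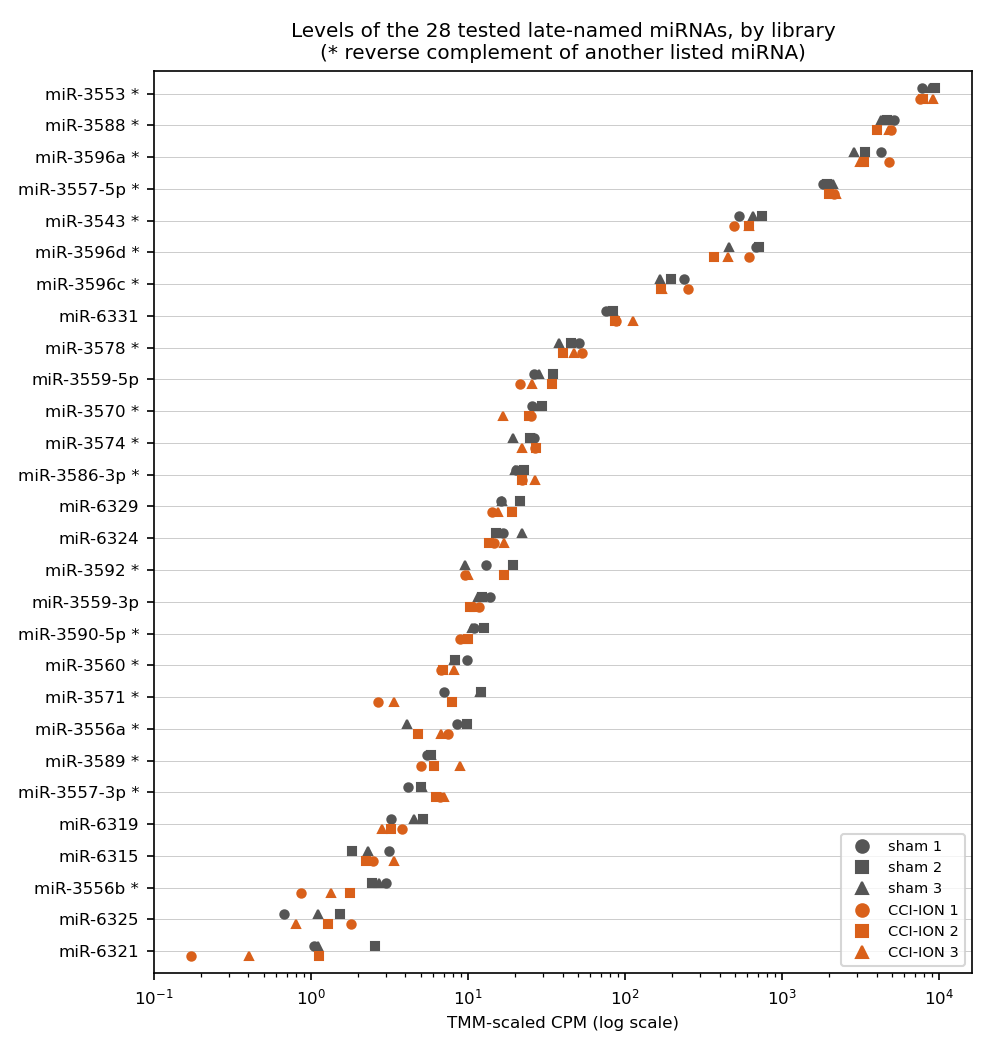
TMM-scaled CPM (log axis) of the 28 members that passed the filter on low counts, each point 1 library, grey for sham and orange for CCI-ION, with the marker shape giving the replicate number and an asterisk the antisense members. The levels run from a mean of 8418 CPM for miR-3553 to 1.07 CPM for miR-6321, and for most members the points of both groups overlap.

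The CPM levels relate counts to all miRNA counts of a library, scaled with TMM factors, and they are not divided by length, since all members are 18 to 25 bases long and a read covers a whole miRNA. The most abundant member was miR-3553, antisense to the sensory neuron miRNA miR-183-5p with rank 19 of 650 by level. It stood at 7828, 9399 and 8797 CPM in sham libraries 1 to 3 and at 7522, 7869.5 and 9095 CPM in CCI-ION libraries 1 to 3. The groups overlapped, with a log2 fold change, CCI-ION over sham, of -0.09 ± 0.13 (SE, edgeR adjusted p = 0.941). miR-183-5p itself stood at 15769 ± 1376 and 14252 ± 999 CPM (mean ± SD, n = 3 each) with a log2 fold change of -0.15 ± 0.13.

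miR-3588, antisense to miR-125b-5p, was next at 5180.0, 4689 and 4241 CPM in sham and 4960.5, 4012 and 4792 CPM in CCI-ION libraries. Its groups overlapped as well (log2 fold change -0.04 ± 0.14, edgeR adjusted p = 0.980). miR-3596a, antisense to let-7a-5p, stood at 4252, 3365 and 2868 CPM in sham and 4797, 3313 and 3131 CPM in CCI-ION libraries. The libraries numbered 1 were the highest of their group for miR-3596a, and the difference between the groups was small beside that spread (0.10 ± 0.22, edgeR adjusted p = 0.947).

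miR-3557-5p is antisense to miR-378a-3p, the arm that predominates in the miR-378a hairpin of metabolic and muscle tissue. It stood at 1828, 1921 and 2101 CPM in sham and 2151, 1989 and 2203 CPM in CCI-ION libraries, with overlapping groups (0.12 ± 0.12, edgeR adjusted p = 0.899). miR-3543 of the Dlk1-Dio3 cluster followed at 529.7, 744 and 656 CPM in sham and 494, 615 and 618 CPM in CCI-ION libraries. Each CCI-ION library was below the sham library of the same number, yet the groups overlapped and the change was not called (-0.16 ± 0.18, edgeR adjusted p = 0.899).

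miR-3596d, opposite let-7f-5p, stood at 686, 711 and 461 CPM in sham and 612, 366 and 452 CPM in CCI-ION libraries (-0.38 ± 0.25, edgeR adjusted p = 0.782). Its seed, TATACAA, is shared with let-7b-3p, let-7f-1-3p and miR-98-3p, passenger arms of the let-7 family. miR-3596c, opposite let-7e-5p, stood at 237, 196 and 168 CPM in sham and 251, 171 and 173 CPM in CCI-ION libraries (-0.02 ± 0.21). Both had overlapping groups. miR-3596b, the fourth of the set, had 0 to 3 counts in a library, while its partner let-7d-5p stood at 5309 ± 267 CPM in sham and 5801 ± 586 CPM in CCI-ION libraries.

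miR-6331, on the plus strand of the Dlk1-Dio3 cluster, was the most abundant member without an antisense partner. It stood at 76.2, 83.5 and 84.4 CPM in sham and 87.8, 86.1 and 112 CPM in CCI-ION libraries. Every CCI-ION library was above every sham library, with a log2 fold change of 0.23 ± 0.16 that was not called (edgeR adjusted p = 0.789). Scaled to the totals behind the deposited RPM values, its fold change was -0.11, while the median over all tested miRNAs fell to -0.34 under that scaling.

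Among these 8 most abundant members, the ranges over libraries of miR-3588 and miR-3596a overlapped, as did those of miR-3543 and miR-3596d. The other neighbours in the order did not overlap. Below them, miR-3578 (38.0 to 53.0 CPM) stood apart from miR-3559-5p (21.3 to 34.7 CPM), miR-3570 (16.7 to 29.4 CPM) and miR-3574 (19.4 to 27.0 CPM), which overlapped with each other. The remaining 16 tested members had levels between 0.172 and 26.8 CPM in single libraries.

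The antisense members were not present in a fixed proportion to their partners. The sources used here do not say whether the counting used the strand of a read. If it did not, reads of a member and of its partner could not be told apart, and its part in these values was not tested. Across the 18 pairs with a mean of at least 10 counts for both miRNAs, the median number of member counts per 100 partner counts ran from 0.226 for miR-3556a and miR-29a-3p to 1767 for miR-3586-3p and miR-151-5p, a 7817-fold range. Within a pair the range over libraries was far smaller, and the highest library exceeded the lowest by 1.18-fold to 2.50-fold, with a median of 1.60-fold. In 14 of the 18 pairs this range stayed under 2-fold. The ratio varied less between libraries than the member's own CPM (SD of log2 values) in 11 of the 18 pairs and more in the others. Across pairs, mean counts of member and partner were still correlated (Spearman 0.682 over the 18 pairs, 0.563 over all 28). Their log2 fold changes on group alone correlated at 0.732 (Pearson), with the same sign in 13 of the 18 pairs. What lies behind these correlations was not tested.

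**Figure D2:**
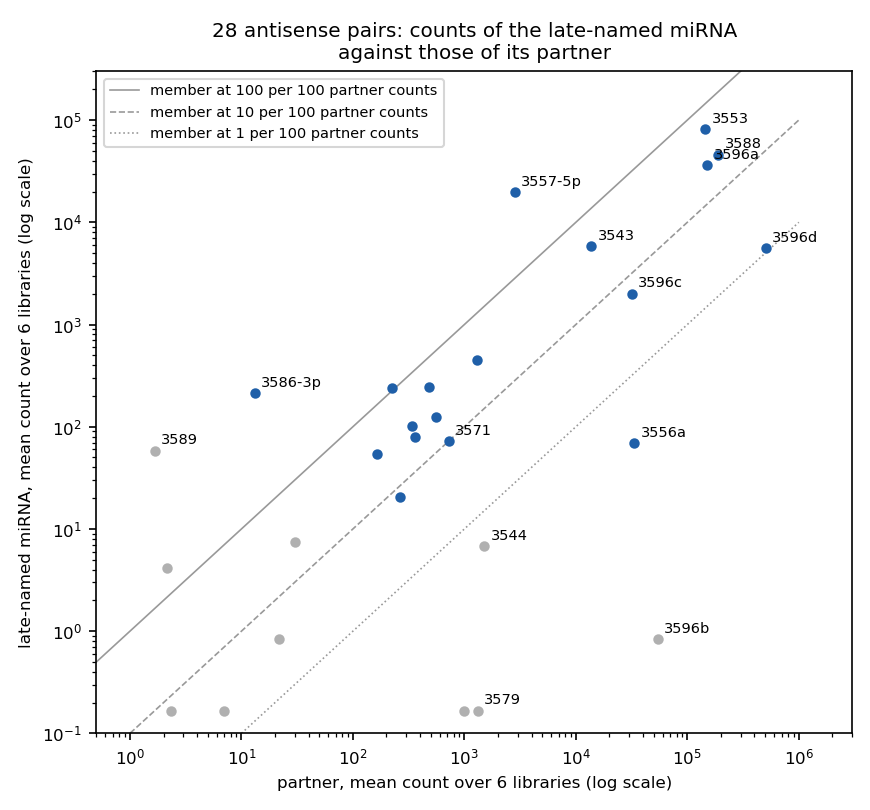
Mean counts over 6 libraries of each antisense member (vertical, log axis) against those of its partner (horizontal, log axis), 1 point per pair, blue for the 18 pairs with a mean of at least 10 counts for both and grey for the others, with lines at 100, 10 and 1 member counts per 100 partner counts. Points near the 100 line and above it, such as miR-3557-5p and miR-3586-3p, are members as abundant as their partner or more so, while miR-3596b and miR-3579 lie far below the 1 line.

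In 2 pairs the late-named miRNA outnumbered the older one in every library. miR-3557-5p had 599, 719.6 and 702 counts per 100 counts of miR-378a-3p in sham and 693, 729 and 832 in CCI-ION libraries. miR-3586-3p had 1929, 1400.0 and 1165 counts per 100 counts of miR-151-5p in sham and 1977, 1725 and 1809 in CCI-ION libraries, where miR-151-5p itself had 8 to 17 counts. A further such pair lay below the minimum for a ratio: miR-3589 had 73, 57 and 58 counts in sham and 58, 38 and 66 in CCI-ION libraries, against 4, 5 and 1 and then 0, 0 and 0 counts of miR-505-3p. A count of 0 in a library allows up to 3 counts there, and miR-505-3p did not pass the filter on low counts and was not tested.

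miR-3574 and miR-210-3p, a hypoxia-induced miRNA, were about equal, with 78.7 to 126 member counts per 100 partner counts, above 100 in some libraries and below it in others. The other 15 pairs stayed below 100 in every library. miR-3553 had 55.1, 57.5 and 52.5 counts per 100 counts of miR-183-5p in sham and 57.4, 52.6 and 61.9 in CCI-ION libraries. miR-3570 ranged from 36.7 to 65.4 per 100 counts of miR-181a-1-3p, the passenger arm of a miR-181a hairpin.

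Of the Dlk1-Dio3 pairs, 3 had enough counts for a ratio. miR-3543 had 40.1 to 47.2 counts per 100 of miR-434-3p, miR-3578 had 30.7 to 38.2 per 100 of miR-369-5p, and miR-3592 had 15.7 to 25.1 per 100 of miR-382-3p. In the same cluster, however, miR-3579 had 1 count in total against 7897 of miR-380-5p, and miR-3544 had 41 against 9034 of miR-337-5p. The ratio was therefore not shared by the cluster as a whole.

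The let-7 pairs differed among themselves as well. miR-3596a had 21.0 to 26.5 counts per 100 of let-7a-5p, miR-3596c had 5.57 to 6.76 per 100 of let-7e-5p, and miR-3596d had 0.638 to 1.40 per 100 of let-7f-5p, the most abundant of the partners. miR-3596b had 5 counts in total against 325731 of let-7d-5p. miR-3588, with the sequence opposite miR-125b-5p, had 22.4 to 26.7 per 100, which overlapped with the ratio of miR-3596a. Among the 18 pairs with enough counts, the lowest ratio, 0.110 to 0.275, was that of the 18-base miR-3556a to miR-29a-3p.

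**Figure D3:**
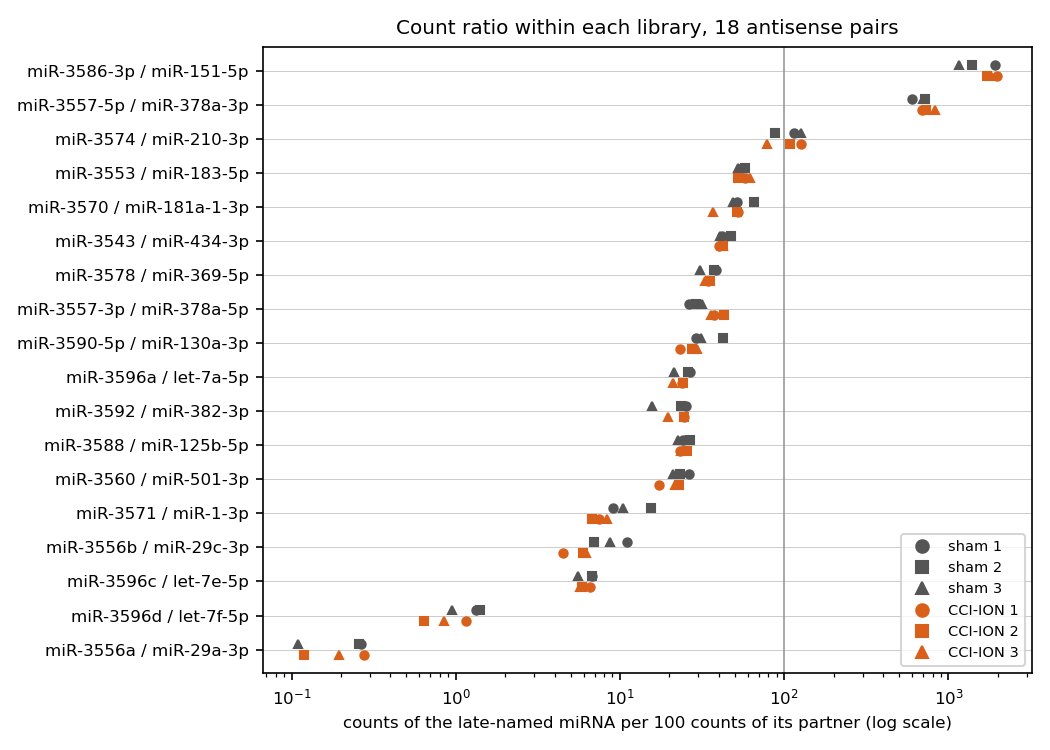
Counts of the late-named miRNA per 100 counts of its antisense partner (log axis) in each of 6 libraries for 18 pairs, grey for sham and orange for CCI-ION, with the marker shape giving the replicate number and the vertical line at 100. The points of one pair lie within 2.50-fold of each other, while the pair medians run from 0.226 to 1767.

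Between the groups, the ratio did not overlap in 3 of the 18 pairs, higher in CCI-ION in 1 (5.56%) and lower in 2 (11.1%). miR-3557-3p had 26.3, 29.0 and 31.5 counts per 100 counts of miR-378a-5p in sham and 37.6, 42.9 and 35.6 in CCI-ION libraries. miR-3571 had 9.12, 15.5 and 10.5 per 100 of miR-1-3p in sham and 7.42, 6.80 and 8.31 in CCI-ION libraries. miR-3556b had 11.1, 6.94 and 8.65 per 100 of miR-29c-3p in sham and 4.50, 5.95 and 6.21 in CCI-ION libraries. In a two-sided exact permutation test each gave p = 0.1, the smallest that 3 against 3 libraries can give, and 0.6 after adjustment over the 18 pairs, so none passed.

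The arms of miR-3557 were compared in the same way. miR-3557-3p had 0.226, 0.260 and 0.244 counts per 100 of miR-3557-5p in sham and 0.309, 0.315 and 0.318 in CCI-ION libraries, without overlap. On the other strand, miR-378a-5p had 5.15 to 6.44 counts per 100 of miR-378a-3p in sham and 5.37 to 7.42 in CCI-ION libraries, with overlap. The minor arm was the 3p arm for miR-3557 and the 5p arm for miR-378a, which lie opposite each other. miR-3559, an X-linked miRNA without a listed antisense partner, had both arms in every library, with 29.9 to 55.1 counts of the 3p arm per 100 of the 5p arm.

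The comparison of CCI-ION with sham was fitted on all 463 miRNAs that passed the filter on low counts, 28 of them members (19 antisense and 9 without a partner). On group alone, edgeR called 1 of the 463 higher (0.216%) and 2 lower (0.432%), and none of the 28 members in either direction. Of the members, 3 had an unadjusted p under 0.05 (miR-3556b, miR-3571 and miR-6321), and the smallest adjusted p was 0.316. DESeq2 and limma-voom on group alone called 0 members as well.

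With the replicate block, edgeR called 28 of the 463 higher (6.05%) and 26 lower (5.62%). Of the members, 0 were called higher and 3 lower: miR-3571, miR-6321 and miR-3556b. With the block DESeq2 called only miR-3571, and limma-voom called miR-3571 and miR-6321. The blocked fit leaves 2 residual degrees of freedom and leans on a variance shared across miRNAs.

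miR-3571, opposite miR-1-3p, stood at 7.06, 12.1 and 11.9 CPM in sham and 2.67, 7.88 and 3.36 CPM in CCI-ION libraries. It was lower in CCI-ION in 3 of 3 libraries of the same number, although CCI-ION library 2 stood above sham library 1. With the block its log2 fold change was -1.24 ± 0.25 (edgeR adjusted p = 0.00021, DESeq2 0.00812, limma-voom 0.0307), and on group alone it was -1.19 ± 0.44 (edgeR adjusted p = 0.432). Without both libraries numbered 3 the blocked call was lost (-0.99 ± 0.31, edgeR adjusted p = 0.181).

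Both miRNAs that complement miR-3571 were measured. miR-1b, which matches it with 1 mismatch, stood at 8385 ± 2939 CPM in sham and 5905 ± 2511 CPM in CCI-ION libraries (mean ± SD, n = 3 each). It was lower with the block (-0.54 ± 0.10, edgeR adjusted p = 2.69e-05) and not called on group alone (edgeR adjusted p = 0.833). miR-1-3p stood at 77.4, 78.1 and 114 CPM in sham and 36.0, 116 and 40.5 CPM in CCI-ION libraries and was not called with the block (-0.68 ± 0.61, edgeR adjusted p = 0.643). Per 100 counts of miR-1-3p and miR-1b together, miR-3571 had 0.115 to 0.138 counts in sham and 0.0533 to 0.0946 in CCI-ION libraries, without overlap.

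The skeletal muscle markers (miR-1-3p, miR-1b, miR-133a-3p, miR-133b-3p and miR-206-3p) were all 5 measured, with none at 0. They summed to 5198 to 10674 CPM in sham and 3342 to 8419 CPM in CCI-ION libraries, and 2 of the 5, miR-1b and miR-133a-3p, were lower with the block. The part of muscle RNA in the value of miR-3571 was not tested.

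miR-3556b, opposite miR-29c-3p, stood at 3.00, 2.44 and 2.71 CPM in sham and 0.862, 1.77 and 1.35 CPM in CCI-ION libraries. All CCI-ION libraries were below all sham libraries, from 10 or 11 counts each against 24 to 40. The log2 fold change was -1.12 ± 0.36 with the block (edgeR adjusted p = 0.0287) and -1.08 ± 0.33 on group alone (edgeR adjusted p = 0.316), and DESeq2 and limma-voom with the block did not call it (adjusted p = 0.419 and 0.124). Its partner miR-29c-3p, of a family that acts on collagen messages, had mean levels of 31.2 ± 4.05 and 23.5 ± 5.55 CPM and was not called (-0.43 ± 0.16 with the block, edgeR adjusted p = 0.0669). The further matches of miR-3556b were not called either. With the block, miR-29a-3p, at 3603 ± 313 and 3408 ± 684 CPM, changed by -0.10 ± 0.10 (edgeR adjusted p = 0.618). miR-29b-3p changed by -0.09 ± 0.12 (edgeR adjusted p = 0.711).

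miR-6321, on chromosome 14 with no listed partner and no other hairpin within 10 kb, had 14, 25 and 11 counts in sham and 2, 7 and 3 in CCI-ION libraries. These correspond to 1.05 to 2.54 CPM and to 0.172 to 1.13 CPM, and CCI-ION library 2 lay above both sham libraries 1 and 3. The log2 fold change was -1.57 ± 0.47 with the block (edgeR adjusted p = 0.0161) and -1.59 ± 0.68 on group alone (edgeR adjusted p = 0.496), and DESeq2 with the block gave an adjusted p of 0.356. Its sequence is shown with that of miR-6331, the most abundant member without an antisense partner.
miR-6321: tACTGCAGtgagttctatgaagc
miR-6331: cTTTGGTGgcttagttctttgtgc

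Each of the 3 blocked calls was lost when both libraries of at least 1 number were left out, that of miR-3571 only without number 3. Without number 1, 2 or 3 in turn, the blocked log2 fold change of miR-3556b was -0.74, -1.41 and -1.18 (edgeR adjusted p = 0.328, 0.0838 and 0.353), smaller than with all libraries only without number 1. That of miR-6321 was -1.96 without number 2 and -1.63 without number 3 (edgeR adjusted p = 0.0926 and 0.244), and without number 1 it no longer passed the filter on low counts. On group alone, leaving out 1 library moved miR-6321 between -1.05 (without CCI-ION library 1) and -2.47 (without CCI-ION library 2), and miR-3571 between -0.89 and -1.77 (without the same libraries).

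**Figure D4:**
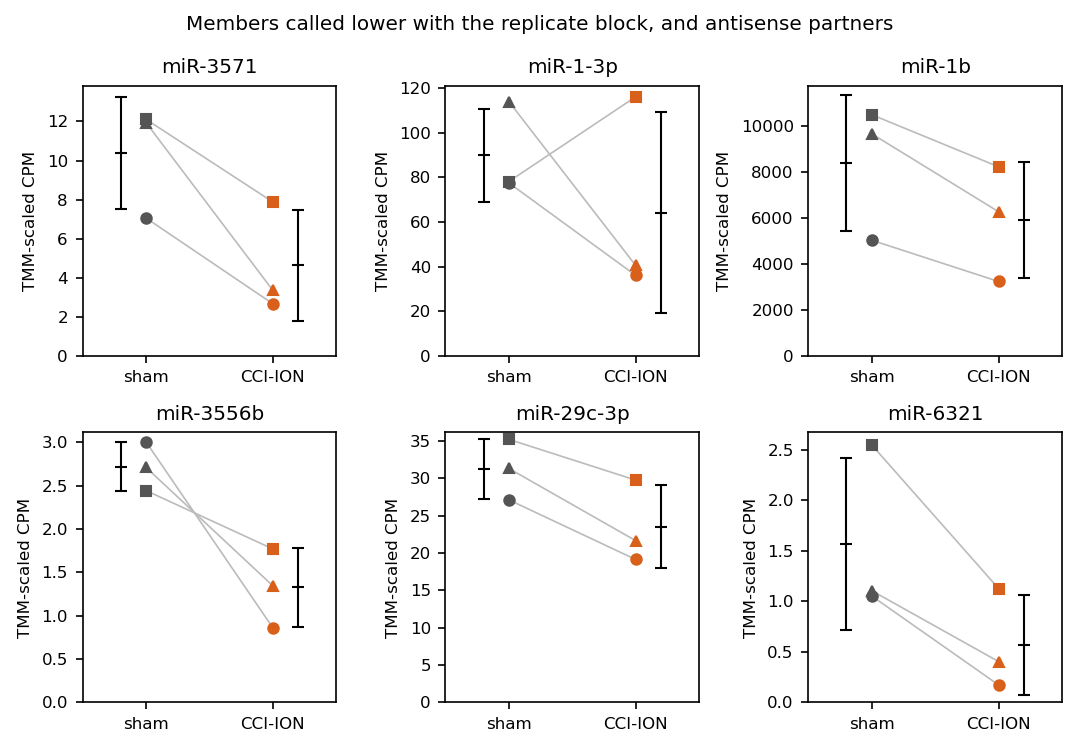
TMM-scaled CPM (linear axes from 0) in sham (grey) and CCI-ION (orange) libraries for the 3 members lower with the replicate block and for the partners miR-1-3p, miR-1b and miR-29c-3p, with grey lines joining libraries of the same number and black bars giving mean ± SD of 3 libraries. miR-3571, miR-1b, miR-3556b, miR-29c-3p and miR-6321 are lower in CCI-ION along all 3 lines, while miR-1-3p is higher in CCI-ION along the line of number 2.

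Groups without overlap were found higher in CCI-ION in 2 of the 28 tested members, against 31 of 463 tested miRNAs (6.7%), and lower in 3 of 28, against 33 of 463 (7.13%). These counts lie near the background, and nothing particular to the members is read from them. The 2 higher were miR-3557-3p and miR-6331, and the 3 lower were miR-3556b, miR-3570 and miR-3590-5p. miR-3557-3p stood at 4.13, 4.99 and 5.12 CPM in sham and 6.64, 6.27 and 6.99 CPM in CCI-ION libraries. Its log2 fold change was the highest among the tested members but not called (0.49 ± 0.22, edgeR adjusted p = 0.496, and 0.245 with the block), and its partner miR-378a-5p stood at 16.4 ± 0.759 and 17.3 ± 2.52 CPM.

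miR-3570, opposite miR-181a-1-3p, stood at 25.6, 29.4 and 28.2 CPM in sham and 25.3, 24.6 and 16.7 CPM in CCI-ION libraries, a narrow gap at library 1 (-0.32 ± 0.20, edgeR adjusted p = 0.776). miR-3590-5p, opposite miR-130a-3p, stood at 10.9, 12.7 and 10.6 CPM in sham and 8.88, 9.97 and 9.69 CPM in CCI-ION libraries (-0.27 ± 0.18, edgeR adjusted p = 0.789). Neither was called with the block.

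Over the 28 tested members, 10 log2 fold changes were positive and 18 negative, with a median of -0.15 against 0.008 over all 463. The 19 antisense members had a median of -0.09, the 9 without a partner -0.15, and the 24 best-matching partners that were tested -0.02. Of these 24, edgeR called 0 in either fit, and 0 on group alone or 2 with the block had an unadjusted p under 0.05. The further match of miR-3571, miR-1b, which was called lower with the block, is not among them. The 26 tested of 43 other late-named miRNAs, numbered 1000 or above and outside the rule, had a median of -0.02. On group alone edgeR called 0 of these, with 2 at an unadjusted p under 0.05, and with the block 2 were called higher and 1 lower (miR-1188-5p, miR-1843a-5p and miR-3072). These medians describe the lists, which were not tested.

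The 34 members that did not pass the filter were not tested in the main comparison, and without the filter edgeR called 0 of the members. In 2 of them, miR-3558-5p and miR-3577, the CPM of the groups did not overlap, from 0 to 2 counts per sham library and 1 to 3 per CCI-ION library, too few to be compared at this depth. The share of such cases over all untested miRNAs was not counted, so nothing particular to the members is read from them. Closest to the filter were miR-3576 with 3 to 12 counts per library and miR-3544 with 2 to 11, both opposite Dlk1-Dio3 miRNAs. miR-3580-3p, from an X-linked cluster with miR-871 and miR-465, had 11 counts in CCI-ION library 1 and 0 or 1 in the other 5 libraries, and it was singled out after its values were seen. miR-3551-3p, miR-3585-3p and miR-3585-5p, also from X-linked clusters, had 1 to 3 counts each in all libraries together.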

How the data were processed

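Small RNA from 6 rat trigeminal ganglion libraries was counted per mature miRNA. The authors deposited raw counts for 650 miRNAs with their sequences, and RPM values per library that equal those counts times 1 constant per library (whole reads recovered from 100% of values within 0.01 read). What the total behind the deposited RPM values counts is not stated. The tools were cutadapt 1.14 and Bowtie 1.1.1, with rn6 as the genome build, per the submitters' processing notes. The sources used here do not name the counter, its use of strand or the annotation. A TruSeq RNA kit and total RNA are named in the labels.

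Counts were tested with edgeR 4.0.16 (quasi-likelihood, robust, TMM, filterByExpr) in R 4.3.3 on group alone, with Benjamini-Hochberg adjustment over all 463 tested miRNAs and a threshold of 0.05. Alternatives were a replicate block, DESeq2 1.42.0, limma-voom (limma 3.58.1), other scalings and filters, and leaving out libraries. The numbers were treated as pairing the libraries after same-number deviations correlated at 0.664, 0.591 and 0.457. The sources used here do not say what a number stands for. Ratios within a library used a pseudocount of 0.5 counts on the log2 scale for the exact permutation test. Antisense partners were ungapped matches of at least 15 bases with at most 1 mismatch, leaving out the other arm of the same number. Positions come from RefSeq (GRCr8), not from the build of the files.

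Named members were the 12 most abundant, those with a partner, those called in either fit, the 8 with the smallest p per fit, near copies and the least counted. The members and lists were chosen with earlier results of these data known. The edgeR fits, on group alone and with the block, were also tried on simulated counts, and no call here rests on that trial. Floors of 3 counts cover counting error only.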

Additional observations from a re-analysis of the deposited data

How the results depend on the processing

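On group alone, 0 members were called with edgeR, DESeq2, limma-voom, upper quartile factors, DESeq2 size factors in edgeR, the RPM totals, no filter, a mean count of at least 50 and each library left out in turn. The replicate block gave 3 calls with edgeR, 1 with DESeq2, 2 with limma-voom and 13 when libraries were scaled to the RPM totals, all lower. Under that last setting 152 of all 463 miRNAs (32.8%) were called lower and 6 higher, against 13 of the 28 tested members lower. The median of all fold changes was -0.35, so lower values under that setting were not limited to the members. Without both libraries numbered 1, 2 or 3 the blocked fit called 1, 1 and 0 members. The cause of these differences was not tested, and the fits without a number also rest on fewer libraries.

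Of 337 fold changes of 17 named members under 20 settings, 291 kept direction and side of the threshold, 17 were called where the fit on group alone made no call, and 29 changed sign, all of them uncalled. Scaled to the RPM totals, the sign turned for miR-3596a (-0.23, or -0.25 with the replicate block), miR-3557-5p (-0.23 and -0.23), miR-6331 (-0.11 and -0.13), miR-3578 (-0.27 and -0.28) and miR-3574 (-0.24 and -0.24). All 5 stayed above the median of all miRNAs (-0.34, or -0.35 with the block). They were already above that median (0.008) with TMM, so their place above it after rescaling decides nothing. The median of the 28 tested members on group alone was -0.15 with TMM and -0.51 with the RPM totals. The cause of the turned signs was not tested. Upper quartile factors turned miR-3553 (0.0044), miR-3588 (0.056) and miR-3596c (0.088), and the higher filter turned miR-3596c (0.0004). With the block and without both libraries numbered 2, miR-3553 (0.0045), miR-3588 (0.066) and miR-3596c (0.072) turned, and without both numbered 3, miR-3578 (-0.070). With 1 library left out, fold changes ran from -0.11 to 0.063 for miR-3588, -0.22 to 0.12 for miR-3596c, -0.12 to 0.27 for miR-3596a, -0.046 to 0.17 for miR-3578, -0.019 to 0.21 for miR-3574 and -0.34 to 0.006 for miR-3559-5p.

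The number of antisense members stayed at 28 in all 4 settings. The pairs whose ratio did not overlap between groups numbered 3, and 3 to 8 with 1 library left out, since fewer libraries overlap less often. Sham minus CCI-ION, the members' share differed by 0.0606 percentage points of miRNA counts (-0.0425 to 0.165 with 1 library left out) and by 0.289 points of the RPM totals. The share of the RPM totals was 1.28% ± 0.113 in sham and 0.987% ± 0.148 in CCI-ION (SD, n = 3 each), without overlap. All listed miRNAs together made up 52.3% to 66.6% of those totals in sham and 45.4% to 55.8% in CCI-ION libraries. Members detected with at least 1, 3 or 10 counts in a library numbered 62, 46 and 31. Depth limits the 34 untested members and miR-6321, whose lowest library had 2 counts.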

Other observations

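Outside the members, 3 further antisense pairs were found among the listed miRNAs. miR-3074 had 27.9 to 43.7 counts per 100 counts of miR-24-1-5p over the 6 libraries, miR-3065-3p had 0.949 to 1.24 per 100 of miR-338-5p, and miR-3065-5p had 0 to 0.0285 per 100 of miR-338-3p. The arms of miR-3065 thus stood at different ratios to the arms of miR-338, a miRNA of myelinating glia, and the ranges of all 3 pairs overlapped between sham and CCI-ION libraries.

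Summed over near copies, miR-3596a, miR-3596c and miR-3596d had 3.51 to 4.69 counts per 100 counts of let-7a, let-7c, let-7e and let-7f in sham and 3.44 to 4.62 in CCI-ION libraries. miR-3556a and miR-3556b together had 0.176 to 0.344 per 100 counts of miR-29a, miR-29b and miR-29c in sham and 0.156 to 0.296 in CCI-ION libraries. Both sums overlapped between the groups, and the second rests mainly on miR-3556a and miR-29a-3p, which hold most of its counts, so it does not bear on miR-3556b.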
